A study of Mus musculus with 28 samples.

Results

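Promoters that carried a peak of H3K27ac in every library were described in NMuMG cells during TGF-β-induced EMT with and without ERK signalling. Overlapping peaks (1 bp or more) of the 15 peak lists were merged into 89050 consensus regions, and 26934 of these were called in all 15 libraries. The 11554 members are those of the 26934 that overlap a window from 1000 bp upstream to 100 bp downstream of an mm9 protein-coding transcription start site. They make up 42.9% of the regions called in all libraries and 77.5% of the 14899 promoter regions called in at least 1 library. The members cover 10410 of the 22372 protein-coding genes of the annotation (46.5%). Among the 74151 regions outside promoter windows, 20.7% were called in all 15 libraries. The members were thus chosen by their peak calls in these libraries, so this presence is not a result, and a promoter that lost or gained its whole peak is not among them.

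NMuMG (here the subclone E9) is a line of mouse mammary gland epithelial cells that undergoes EMT under TGF-β. ChIP-seq for H3K27ac gave 3 libraries for each of 5 conditions, all from this 1 subclone. The conditions were untreated cells (0h), 2 ng/ml TGF-β with the solvent DMSO for 4h and for 24h, and the same TGF-β times with 25 µM UO126 (ERKi 4h and ERKi 24h). UO126, which blocks the kinase MEK that activates ERK, was added 30 min before TGF-β, and no library had the inhibitor without TGF-β. No library without TGF-β was taken at 4h or 24h either. Against 0h, the effects of TGF-β, of the solvent and of time in culture therefore cannot be told apart. The libraries of a condition are numbered replicates 1 to 3, and no label says whether they came from separate cultures, so the p-values measure the spread between these samples, which may be technical.

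H3K27ac is acetylation of lysine 27 on histone H3, placed by the acetyltransferases p300 and CBP and removed by histone deacetylases. It marks the nucleosomes beside active promoters and enhancers. Most promoters of genes that every cell uses lie in CpG islands, stretches rich in the dinucleotide CG that other vertebrate DNA has largely lost, whereas many tissue-specific promoters do not. TGF-β signals through receptors to SMAD transcription factors and also activates ERK, which drives immediate-early genes and entry into the cell cycle.

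The promoter sequences below belong to members on which the results turn, and are shown because they differ in letters that transcription factors of the cell cycle are known to bind. Each runs 5′ to 3′ in the direction of transcription, from 150 bases before the annotated start through the first 20 bases of the transcript, on mm9. Capitals mark matches on either strand to the CCAAT box (CCAAT, bound by NF-Y), the CHR element (TTTGAA or TTCGAA, bound by the DREAM and MuvB complexes of cell-cycle genes), the E2F site (TTTCCCGC, TTTGGCGC, TTTCGCGC or TTTGCCGC), the ETS site (CCGGAAGT), the GC box (GGGCGG, bound by Sp1), the TATA box (TATAAA) and the AP-1 site (TGANTCA). Ube2c and Nek2 act in mitosis, and Mcm3 and Mcm6 are subunits of the replicative helicase. Fosl1 encodes an AP-1 subunit and Cmtm8 a membrane protein of the chemokine-like factor family. Gmeb1 encodes a DNA-binding protein and is shown as a member whose rank varied little.
Ube2c (chr2:164595253-164595422, plus strand): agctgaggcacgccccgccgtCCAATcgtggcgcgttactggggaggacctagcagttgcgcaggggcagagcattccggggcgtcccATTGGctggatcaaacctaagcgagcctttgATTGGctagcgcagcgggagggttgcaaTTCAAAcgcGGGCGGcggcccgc
Nek2 (chr1:193645243-193645412, plus strand): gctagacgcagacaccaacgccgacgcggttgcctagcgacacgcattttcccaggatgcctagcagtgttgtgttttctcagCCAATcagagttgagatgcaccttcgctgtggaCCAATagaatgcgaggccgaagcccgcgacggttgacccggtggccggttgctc
Mcm3 (chr1:20810340-20810509, minus strand): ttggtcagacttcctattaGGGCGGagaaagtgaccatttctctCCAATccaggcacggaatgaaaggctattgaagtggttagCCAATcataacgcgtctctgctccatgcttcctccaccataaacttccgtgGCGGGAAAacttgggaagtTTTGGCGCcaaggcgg
Mcm6 (chr1:130256205-130256374, minus strand): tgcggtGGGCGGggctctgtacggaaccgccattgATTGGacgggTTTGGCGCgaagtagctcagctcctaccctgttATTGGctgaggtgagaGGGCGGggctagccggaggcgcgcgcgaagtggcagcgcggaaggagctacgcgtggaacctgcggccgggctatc
Fosl1 (chr19:5447553-5447722, plus strand): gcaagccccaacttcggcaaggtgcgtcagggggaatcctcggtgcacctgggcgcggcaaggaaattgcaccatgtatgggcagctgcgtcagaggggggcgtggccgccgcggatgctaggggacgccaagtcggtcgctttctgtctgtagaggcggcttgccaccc
Cmtm8 (chr9:114753251-114753420, minus strand): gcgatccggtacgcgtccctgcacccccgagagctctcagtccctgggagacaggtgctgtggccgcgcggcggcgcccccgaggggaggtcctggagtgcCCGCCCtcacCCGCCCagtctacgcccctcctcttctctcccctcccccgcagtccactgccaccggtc
Gmeb1 (chr4:131817498-131817667, minus strand): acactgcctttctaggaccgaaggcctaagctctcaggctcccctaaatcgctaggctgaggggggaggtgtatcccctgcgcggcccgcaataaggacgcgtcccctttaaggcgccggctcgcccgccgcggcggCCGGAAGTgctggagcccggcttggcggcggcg
The stretch of Ube2c held CCAAT boxes and a CHR element, that of Nek2 held CCAAT boxes alone, and those of Mcm3 and Mcm6 held CCAAT boxes together with E2F sites. The stretch of Fosl1 held none of these letters and that of Cmtm8 held GC boxes alone. A match is a description of letters, not a measured binding site.

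The lists held between 50445 and 69180 peaks per library and give no read totals, so the depth is unknown and no counting interval could be given. Members held between 20.05 and 28.7% of a library's peaks (median 24.9%) and between 26.2 and 39.5% of the bases in peaks. The label of an epithelial line was compared with marker promoters. Of 10 epithelial markers, Cdh1, Krt8 and Krt18 were members, Krt19 was called in 14 libraries, Cldn4 in 11, and Epcam, Cldn3, Cldn7, Esrp1 and Grhl2 in 0. Krt19 also had a region called in all 15 libraries that lay 100 to 1000 bp downstream of a start. Of 10 mesenchymal markers, Vim, Cdh2, Fn1, Zeb1, Zeb2 and Col1a1 were members, while Acta2 was called in 2 libraries, Pdgfrb in 1, and Twist1 and Snai2 in 0. All 5 haematopoietic and all 4 endothelial markers were called in 0 libraries, none of 3 adipocyte and none of 3 neural markers was a member, and of these only Pparg was called in more than 2 libraries (14).

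Just outside the rule, 369 promoter regions were called in 14 of the 15 libraries. In the libraries that called them, their median percentile within the library's own peak list was 42.7 (from 19.7 to 80.8). The 369 members with the weakest call in any library had a median of 44.0, against 86.1 over all members. The library that lacked the 369 was most often ERKi 24h replicate 2 (54 regions) and least often ERKi 24h replicate 1 (3 regions). Counted by replicate number, 80, 139 and 150 of them were missing from replicates 1, 2 and 3. The weakest of the 15 calls of a member had a median -log10 q of 32.9, it was below 5 for 445 members and below 2 for 1.

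Peaks were ranked by -log10 p, by fold enrichment and by width. In the deposited lists, the fold enrichment is the height of a peak over the local background of that library, and -log10 p also grows with the number of fragments at the summit. For each region, library and measure, the highest value of its peaks was turned into a percentile (0 to 100) among the 26934 shared regions of that library. A percentile therefore compares a promoter with the other shared regions of the same library and is not an amount of acetylation. In bulk samples, fewer cells with the mark and less of the mark per cell cannot be told apart.

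Members ranked high by height and less so by width. By -log10 p, the median percentile of a member lay between 65.9 and 73.9 over the 15 libraries, against 33.5 to 39.8 for the 15380 other regions called in all of them. By fold enrichment it lay between 67.8 and 73.4, and by width between 47.6 and 61.9. The libraries of replicate 3 were the lowest by width in each condition, at 47.6 to 50.3, and lay at 65.9 to 70.3 by -log10 p. Within a library, the ranks of the members by -log10 p and by fold enrichment had a median Spearman correlation of 0.643, those by -log10 p and by width 0.509, and those by fold enrichment and by width 0.250. These are correlations over 11554 regions of 1 library, which share its depth and are not independent replicates.

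The sequence around the start is a feature that the rule did not use. The observed to expected CpG ratio, the number of CG dinucleotides over that expected from the C and G content, was computed from 250 bases before to 50 after the start. Its median was 0.79 for the 10410 genes with a member, 0.36 for the 1080 genes whose promoter was called in 1 to 14 libraries, and 0.26 for the 10882 genes without a promoter call. A ratio above 0.6, usual for CpG islands, was found at 76.3, 30.7 and 17.9% of these genes. Over the member regions, the start nearest to the summit had a median ratio of 0.82 and 63.3% G and C, and 81.2% were above 0.6. With the members cut into 5 equal classes, the share above 0.6 was 66.5% in the lowest and 91.4% in the highest class by -log10 p, and 80.04% and 80.4% by width. The TATA box was found at 5.05% of member regions and at 13.4% of all genes, and the GC box at 70.5 and 43.9%. Genes were read at their most upstream annotated start, and regions at the start nearest to the summit, so the units differ. Of the genes with a member, 6.29% held a TATA box and 65.5% a GC box.

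**Figure D1:**
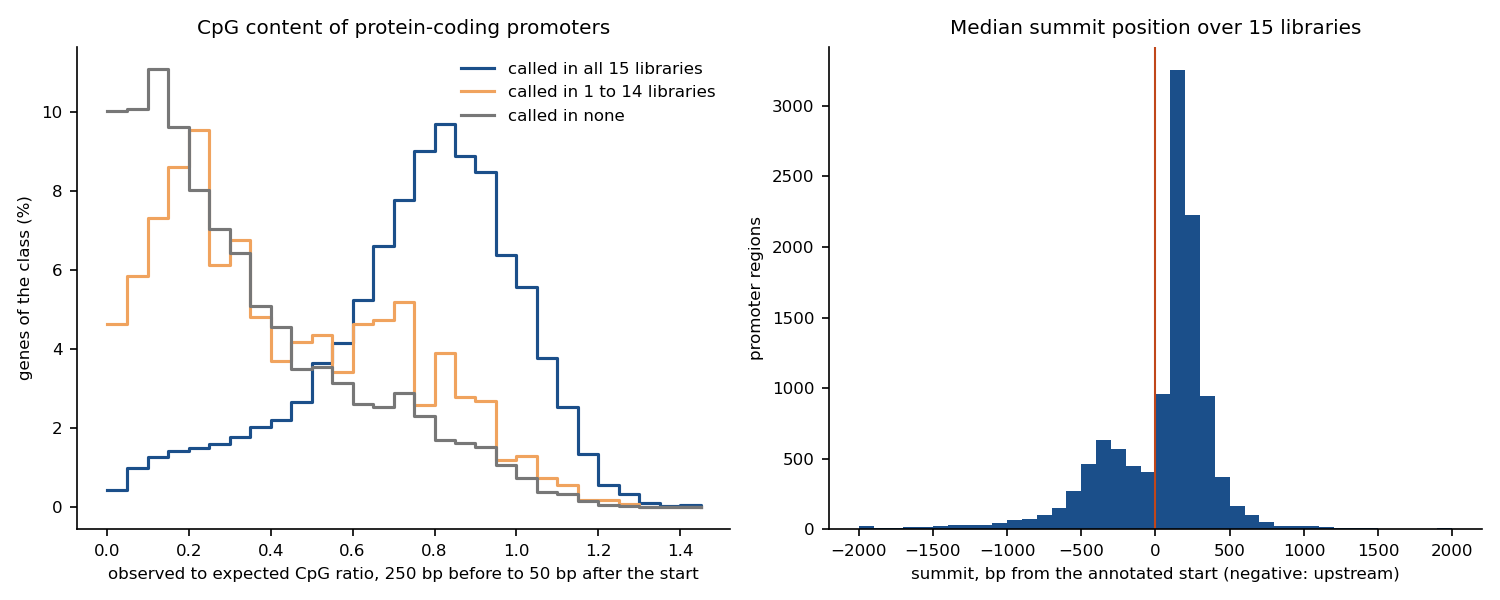
Left, the percent of genes of each class (vertical axis) by the CpG ratio of the promoter (horizontal axis, observed over expected), for genes called in all 15 libraries, in 1 to 14 and in none; the genes called in all 15 have a median of 0.79, and those called in none of 0.26. Right, the number of member regions (vertical axis) by the distance in bp of the median summit from the nearest annotated start (negative is upstream); the highest bars lie downstream of the start, with a median of 152 bp.

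The summits lay beside the start rather than on it. The median summit of a member was 152 bp downstream of its nearest annotated start, 70.7% of members had it downstream and 29.2% upstream, and 11.9% had it within 100 bp of the start. Within 500 bp of the start lay 88.8% of them. The share upstream was between 28.9 and 32.3% in the 15 libraries, and the summit of a single library lay a median of 27 bp from the median summit of its member. Starts on both strands were covered by 1434 members (12.4%), and windows of more than 1 gene by 1514 (13.1%), so that the signal of those regions cannot be given to 1 gene.

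The position of a member in the list was shared by the libraries to different degrees. Over the 15 libraries, the percentile by -log10 p of a member spanned a median of 28.9 points, against 38.0 for the other regions, and the median SD within a condition was 7.79 points. By fold enrichment the median span was 24.1 (other regions 32.6), and by width 34.95 (51.7). For 1126 members (9.75%) it spanned less than 10 points and for 1230 (10.6%) more than 50. In every library, 6028 members (52.2%) were at or above percentile 50 and 803 (6.95%) at or above percentile 90. The Spearman correlation between 2 libraries over the members was 0.856 to 0.928 (median 0.893) within a condition and 0.855 to 0.937 (median 0.911) between libraries of the same replicate number in different conditions. It was 0.801 to 0.910 (median 0.863) for pairs that shared neither.

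At the top of the list by -log10 p were Gm10800, a predicted gene, Mdm2, the ubiquitin ligase that degrades p53, Rap1b, a small GTPase, Zfyve27 and Pgam1, a glycolytic enzyme. Their lowest percentile in any library was 99.91 (Pgam1). The local background of these 5, worked out from both values of a peak, had medians from 142 (Zfyve27) to 599.8 fragments (Gm10800), against 12.1 over all members. A median background of 100 fragments or more was found for 52 members, of which 27 lie on chromosome 19, 8 on chromosome 5 and 5 on chromosome 10. They supplied 36 of the 100 members with the highest mean percentile by -log10 p, and 44 of these 100 lie on chromosome 19. By fold enrichment, which is taken over the local background, the 52 members had a median percentile of 41.2, against 70.5 over all members. The part of the background in the rank of these members was not tested. Pgam1 had a peak inside the promoter window itself in 5 of the 15 libraries.

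Other members led by fold enrichment and by width. The highest mean percentile by fold enrichment was that of Zfp747, a zinc finger gene, with a median fold of 24.6 and a mean peak width of 511 bp. Gm10800, Zfp619, Wdr41 and Med16, a subunit of the Mediator complex, came next, with median folds of 24.5, 20.3, 20.2 and 20.03. The widest peaks were those of Glis3, Pax2, both transcription factors, Pdgfb, a growth factor chain, Anp32a and Phldb2, with mean widths of 2830, 2757, 2731, 2742 and 2713 bp. By fold enrichment, these wide promoters lay at mean percentiles of 16.5 to 25.1. The lowest mean percentile by -log10 p was that of Lamb1, a laminin chain (2.61), followed by Ccl27a (3.605), Eda2r (4.37), Shc2 (4.40) and Cdc34 (4.44).

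Among members with a mean percentile between 25 and 75, Gmeb1 at chr4:131817505-131818181 had the smallest span (10.4 points). It lay at 73.8, 72.9 and 67.2 in the 0h libraries, 73.6, 67.5 and 75.1 in those of 4h and 74.4, 75.8 and 67.8 in those of 24h. The ERKi libraries lay at 74.7, 65.5 and 75.9 (4h) and 66.1, 75.2 and 71.7 (24h). These values overlapped in all 5 conditions. Dnaja1, a chaperone, Tmem176a with Tmem176b, Psmb10, a proteasome subunit, and Uba1, the ubiquitin-activating enzyme, followed with spans of 12.5 to 12.6 points.

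The members with the widest span were set by single libraries or by replicate 3 in 4 of 5 cases. Mtmr12, a phosphatase-like protein, lay at 0.343 in 0h replicate 1 and between 83.0 and 96.6 in the other 14 libraries. The region shared by Gtf2h1 and Hps5 lay at 3.48 in ERKi 24h replicate 1 and between 88.1 and 97.5 elsewhere. The mitochondrial members mt-Cytb and mt-Nd1, on DNA that carries no nucleosomes, lay between 79.8 and 99.2 in replicates 1 and 2 of every condition and between 3.54 and 36.0 in replicate 3. Coro6, the last of them, differed between conditions and is described with 4h.

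Most members passed in no comparison. The percentiles by -log10 p were compared between conditions with limma over all 26934 shared regions, with Benjamini-Hochberg adjustment over all of them and a threshold of 0.05. Over the 5 conditions, 631 members (5.46%) passed the F test, against 14.8% of all regions tested and 21.7% of the other regions. Any of the 4 comparisons called 521 members (4.51%), while 10808 (93.5%) passed neither these nor the F test. The replicate numbers paired the libraries, as described with the processing, and with the replicate number as a block the F test called 2335 members, against 34.8% of all regions. Whether promoters differ from other regions in how many change was not tested, and the shares are given side by side.

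**Figure D2:**
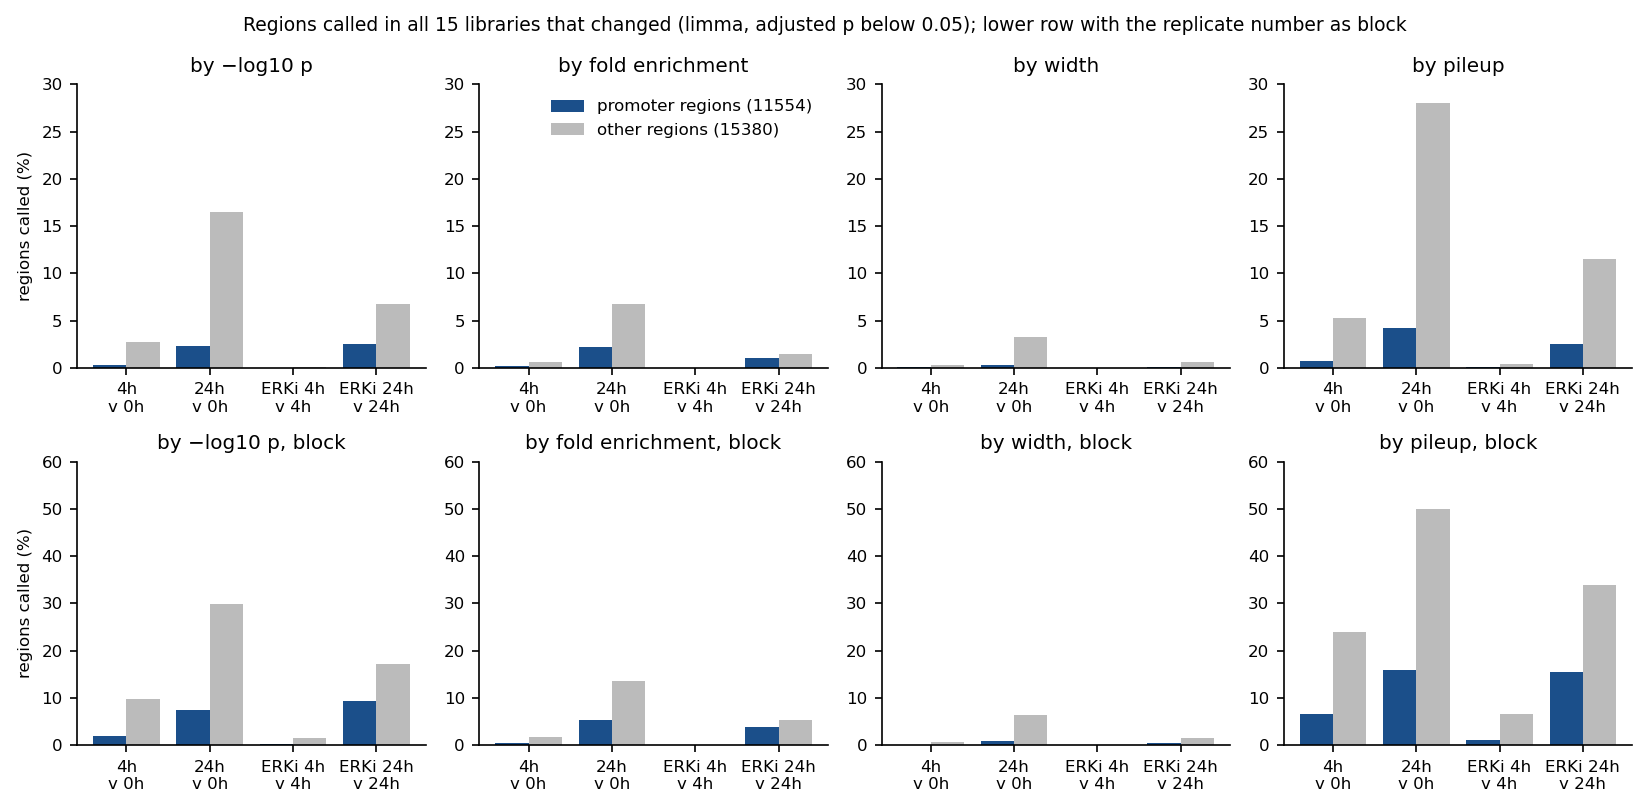
Percent of regions called in all 15 libraries that passed the limma test (vertical axis, adjusted p below 0.05; bars start at 0, and the lower row has a wider axis) in each comparison, for promoter members and other regions, by 4 measures, without (upper row) and with (lower row) the replicate number as a block. By -log10 p without the block, 2.26% of members and 16.5% of other regions were called at 24h against 0h, and 2.56 and 6.71% at ERKi 24h against 24h.

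The comparison of 4h with 0h asked which promoters differ between untreated cells and cells after 4h of TGF-β with DMSO. It called 29 members (0.251%), 25 higher and 4 lower, against 1.65% of all regions tested (1.44% higher and 0.208% lower). With the replicate block 214 were called, 119 higher and 95 lower, against 6.3% of all regions (4.64% higher and 1.66% lower), so the split of directions depended on the block. Percentiles within each library's own whole list called 44 higher and 1 lower (2.17 and 0.0186% of all regions). Without 4h replicate 3 the count was 13 and without 4h replicate 1 it was 15. By fold enrichment 22 members were called (5 higher and 17 lower, against 0.457% of all regions, 0.223% higher and 0.234% lower), by width 4 (0.193%) and by pileup, the solved number of fragments at the summit, 82 (71 higher and 11 lower, against 3.3%, 2.57% higher and 0.735% lower).

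The largest rise at 4h was that of Coro6, a member of the coronin family of actin-binding proteins, at chr11:77277420-77279661. Its percentiles were 5.71, 2.93 and 1.72 at 0h and 71.4, 51.5 and 88.0 at 4h, a difference of 66.9 ± 8.32 (SE, n = 3; limma, adjusted p = 0.000210). All 4h libraries lay above all 0h libraries, as the choice of named members required. Only 2 of the 15 libraries had a peak inside the promoter window of Coro6, the others having it elsewhere in the merged region, and none of the 0h and 4h libraries was among these 2, so peaks in the window alone could not compare them. Ypel4 at chr2:84573020-84575079 had peaks in the window in all 15 libraries and rose from 21.0, 21.3 and 20.9 to 75.3, 71.5 and 83.1 (55.5, adjusted p = 0.000643, limma). Abcb8, a mitochondrial transporter, rose by 54.6 points, Acsbg1, an acyl-CoA synthetase, by 51.1, and Cttnbp2nl, whose window held a peak in 5 libraries, by 49.7.

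Nfe2l2, Gsta2 and Nes were among the 4 members that fell at 4h. Nfe2l2, which encodes the antioxidant regulator NRF2, lay at 52.9, 42.9 and 57.2 at 0h and at 24.2, 10.3 and 18.0 at 4h (-33.5 ± 7.24, SE; limma, adjusted p = 0.0196). The libraries did not overlap, which the choice of named members required. Gsta2, a glutathione S-transferase, fell from 35.2, 26.4 and 26.3 to 3.06, 3.88 and 6.21 (adjusted p = 0.00376, limma). Nes, the intermediate filament nestin, fell by 21.9 points.

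At 24h against 0h, 261 members passed (2.26%), 117 higher and 144 lower, against 10.4% of all regions tested (6.2% higher and 4.21% lower). The block called 863, 279 higher and 584 lower, against 20.3% of all regions (10.6% higher and 9.67% lower). Percentiles within each library's own whole list called 149 higher and 77 lower (6.29 and 2.62% of all regions). Without 24h replicate 1 the count was 143, without 0h replicate 3 it was 147, without 0h replicate 1 it was 162 (92 higher and 70 lower, so that the higher calls were then the more numerous) and without 24h replicate 3 it was 167. By fold enrichment 259 were called (80 higher and 179 lower, against 4.84%, 2.29% higher and 2.55% lower), by width 38 (1.99%) and by pileup 490 (17.8%). Of the 117 higher members, 79 differed in the same direction by fold enrichment, width and pileup, and of the 144 lower members 104 did. All of these measures come from the same libraries. The comparisons of 4h and of 24h share the 0h libraries.

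Among the rises at 24h, Prss22, a serine protease, at chr17:24134390-24136509, lay at 2.499, 0.408 and 7.32 at 0h and at 84.5, 77.9 and 84.2 at 24h (78.8 ± 8.38, SE; limma, adjusted p = 1.76e-05). At 4h it lay at 39.7, 18.9 and 40.9 and at ERKi 24h at 52.6, 26.5 and 49.7, between those groups. Coro6 rose by 79.9 points, Abcb8 by 70.7, Cttnbp2nl by 68.1 and Abr, a regulator of small GTPases, by 62.5. In Coro6, Abcb8 and Cttnbp2nl the 24h libraries lay above the 0h libraries as the 4h libraries had.

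Among the falls at 24h, Il33, the cytokine interleukin-33, at chr19:29998288-30000163, lay at 86.5, 82.9 and 92.4 at 0h and at 16.9, 64.0 and 19.98 at 24h (-53.6 ± 9.43, SE; limma, adjusted p = 0.00105). Replicate 2 stood above the other 24h libraries but below all 0h libraries. Abp1, an amine oxidase, at chr6:48844408-48846104, fell from 82.1, 72.5 and 90.6 to 22.6, 36.0 and 39.9 (-48.9, adjusted p = 0.000149, limma), having been at 86.2, 73.1 and 90.1 at 4h. Slc22a14, a transporter gene, fell by 47.8 points, Ccbl1, an aminotransferase, by 47.4 points (with a peak in its window in 7 libraries) and Bhlhe40, a transcriptional repressor of the clock, by 45.9 points. By pileup the percentile of Bhlhe40 differed by -0.704 (adjusted p = 0.957, limma), and by fold enrichment by -19.6 (0.00121).

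ERK inhibition at 4h called 0 members by limma, against 0.0631% of all regions (17 regions, lower in each case). At an unadjusted p below 0.05 there were 384 members (3.32%, against 8.97% of the other regions), and the block called 36, 14 higher and 22 lower, against 0.984% of all regions (0.175% higher and 0.809% lower). By fold enrichment and by width 0 members were called (against 0 and 0.00371% of all regions, with 355 and 219 members, or 3.07 and 1.90%, at an unadjusted p below 0.05), and by pileup 4 (0.249%). Of all members, 866 (7.50%) had no overlap in this comparison, and the largest such differences are given as values. Cirbp, a cold-inducible RNA-binding protein, lay at 13.7, 4.77 and 7.46 at 4h and 45.1, 42.6 and 59.5 at ERKi 4h (adjusted p = 0.244, limma, and 0.0106 with the block). Cables2 differed by 36.9 (adjusted p = 0.0554, 0.00255 with the block) and Cyp1b1, a cytochrome P450, by 31.5 (0.121 and 0.0111). In the other direction, Usp48, a deubiquitinase with a peak in its window in 6 libraries, differed by -36.5 (0.136 and 0.00535), Nr1d1, the clock repressor REV-ERBα, by -32.5 (0.175 and 0.0103) and Obfc1, a telomere protein, by -32.1 (0.134 and 0.00713).

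At 24h, ERK inhibition called 296 members (2.56%), 74 higher and 222 lower, against 4.93% of all regions tested (2.11% higher and 2.82% lower). The block called 1088, 390 higher and 698 lower, against 13.8% of all regions (6.57% higher and 7.25% lower). Without ERKi 24h replicate 3 the count was 117, without 24h replicate 1 it was 138, without 24h replicate 3 it was 186 and without ERKi 24h replicate 2 it was 162. The higher calls were 20, 31, 46 and 25 without these, and 35 of 235 without ERKi 24h replicate 1. By fold enrichment 119 were called (32 higher and 87 lower, against 1.29%, 0.631% higher and 0.657% lower), by width 15 (9 higher and 6 lower, against 0.423%, 0.223% higher and 0.2% lower) and by pileup 294 (135 higher and 159 lower, against 7.68%, 3.34% higher and 4.34% lower), so the excess of lower calls was smaller by pileup and absent by width. Of the 222 lower members, 185 were lower by fold enrichment, width and pileup alike, and 53 of the 74 higher members were higher by all of these. The effect of ERK inhibition differed between 24h and 4h for 2 members, both lower at 24h, against 0.0186% of all regions, and with the block for 92, 10 higher and 82 lower, against 0.936% (0.375% higher and 0.561% lower). By fold enrichment, by width, within the own list, by normal scores and with regions covered at least 50% in every library this test called 0 members, and with a library left out 0 to 10.

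Among the 5 largest falls, Ube2c, Ccnb1 and Nek2 act in mitosis. Ube2c, the ubiquitin-conjugating enzyme of the anaphase-promoting complex, at chr2:164595352-164596984, whose sequence is given above, lay at 88.7, 70.7 and 82.2 at 24h and at 36.4, 10.7 and 20.8 at ERKi 24h (-57.9 ± 7.31, SE; limma, adjusted p = 0.000297). It lay between 73.2 and 97.4 in the 0h, 4h and ERKi 4h libraries, above every ERKi 24h library. Ccnb1, the mitotic cyclin B1, at chr13:101554782-101556643, fell from 86.8, 63.9 and 76.9 to 27.8, 2.81 and 24.53 (-57.5, adjusted p = 0.000473, limma). Nek2, a kinase of the centrosome, at chr1:193644822-193646287, fell from 63.3, 53.5 and 70.3 to 13.1, 5.24 and 1.58 (-55.7, adjusted p = 0.000576, limma). In each of these promoters the lowest 24h library stood above the highest ERKi 24h library, as the choice of named members required.

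Fosl1 and Dub1 completed the 5 largest falls. Fosl1 encodes FRA1, an AP-1 subunit whose gene is a known target of ERK signalling. At chr19:5447637-5449750 it lay at 95.3, 96.7 and 89.2 at 24h and 41.8, 42.9 and 24.54 at ERKi 24h (-57.3 ± 5.97, SE; limma, adjusted p = 4.70e-05), and at 89.3, 91.8 and 80.9 and 74.5, 58.9 and 62.4 in the corresponding 4h libraries. Its 4h and ERKi 4h libraries did not overlap either, but that difference was not called (adjusted p = 0.269, limma). Dub1, a deubiquitinase induced by cytokines, at chr7:112004068-112004973, fell from 57.1, 58.0 and 70.6 to 0.485, 13.4 and 3.00 (-56.3, adjusted p = 0.000384, limma).

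The largest rises under ERKi at 24h included promoters that had fallen at 24h against 0h. Abp1 lay at 69.7, 77.3 and 88.2 at ERKi 24h against 22.6, 36.0 and 39.9 at 24h (45.6 ± 6.72, SE; limma, adjusted p = 0.000839), and at 82.1, 72.5 and 90.6 at 0h. Slc22a14 lay at 54.2, 55.5 and 68.1 at 0h, 1.72, 19.3 and 13.4 at 24h and 39.0, 59.8 and 68.1 at ERKi 24h (44.2, adjusted p = 0.00772, limma). Both comparisons use the same 24h libraries, so a low value there moves both. Gm5623, a predicted gene, rose by 45.9 points, Nckap5 by 44.1 and Rapgef1, an exchange factor for Rap1, by 41.0.

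**Figure D3:**
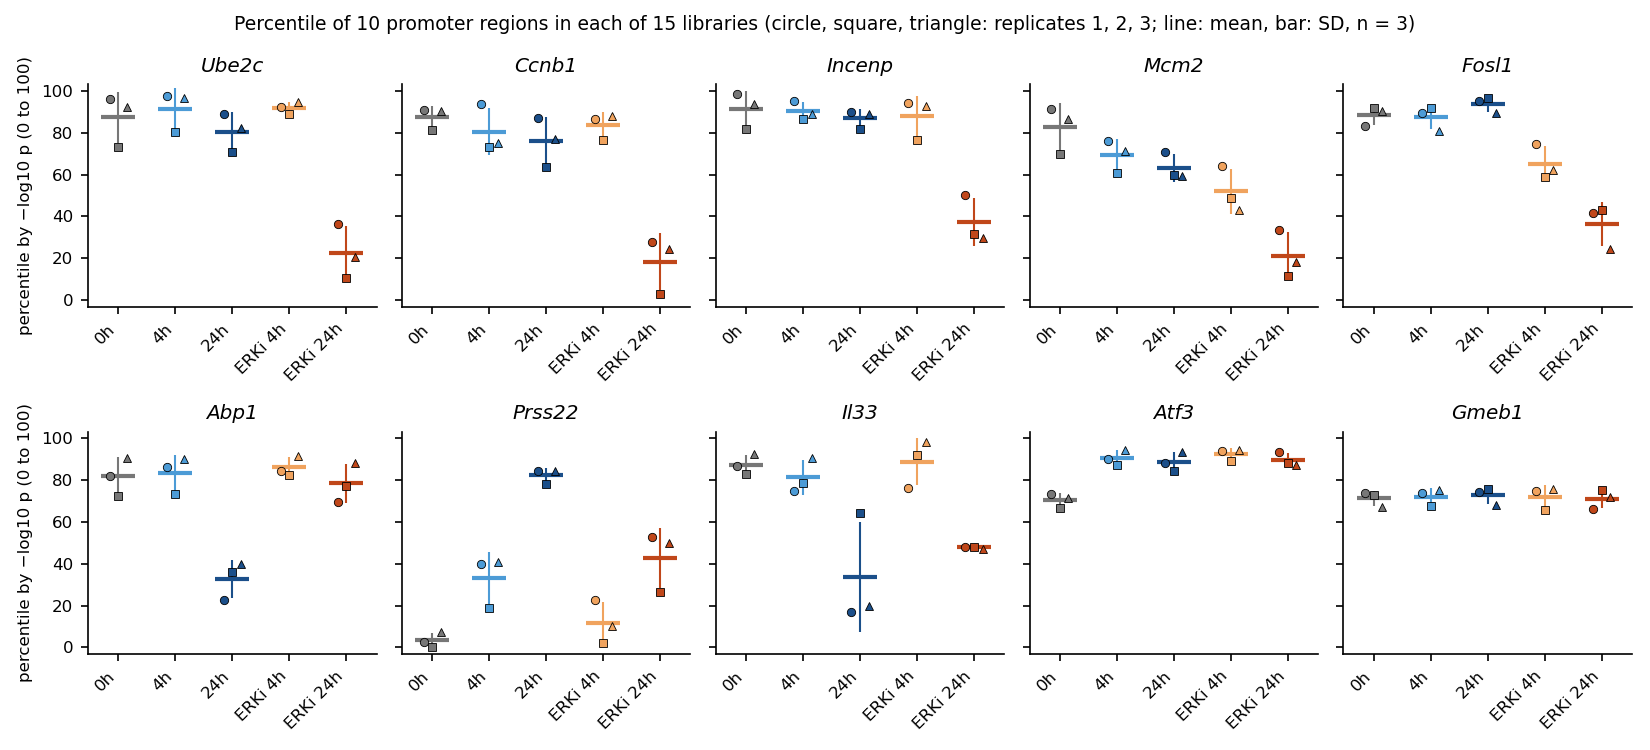
Percentile by -log10 p (vertical axis, 0 to 100) of 10 promoter regions in each of the 15 libraries, by condition (horizontal axis); circles, squares and triangles are replicates 1, 2 and 3, lines are means and bars SD (n = 3). Ube2c, Ccnb1, Incenp, Mcm2 and Fosl1 are lowest in the ERKi 24h libraries, Abp1 is lowest at 24h, Prss22 is highest at 24h, Atf3 is lowest at 0h, and Gmeb1 spans 65.5 to 75.9 over all 15.

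The gene lists were read by their counts and medians. Lists of the basic machinery of the cell were members nearly throughout. All 37 ribosomal protein genes listed, all 29 translation factors, all 20 aminoacyl-tRNA synthetases, all 31 proteasome subunits and all 33 genes of RNA polymerase II and the general transcription factors had a member. Their 49, 42, 26, 36 and 36 member regions had median percentiles by -log10 p of 83.3, 87.6, 80.4, 87.2 and 82.1, against 70.6 over all members. In the 4 comparisons 0 of these regions were called by limma, against 0 to 2.56% of all members, at most 5 of a list in a comparison had an unadjusted p below 0.05, and with the block at most 4 regions of a list were called in a comparison (translation factors, 3 higher and 1 lower of 42 under ERKi at 24h, against 3.38% higher and 6.04% lower of all members). In lists of this size such shares amount to about a region or fewer without the block, so the counts do not set these lists apart. The 36 spliceosome genes had 51 member regions, of which Snrpd1 and Sf3b2 fell under ERKi at 24h (by 17.2 and by 11.6 points), and with the block 1 rose and 6 fell. Of all members, 1.92% fell in this comparison, and with the block 3.38% rose and 6.04% fell. Without ERKi 24h replicate 2 or any 24h library, 0 spliceosome regions were called. Of the 44 genes of oxidative phosphorylation, all members with 54 regions, Ndufa6 rose at 24h (19.4). Of all members 1.01% were higher in this comparison, and of all regions 6.2%. The call of Ndufa6 was lost without any 0h library or 24h replicate 2 or 3. Of 18 glycolysis genes 16 were members, with a median percentile of 52.7, and Ldha, lactate dehydrogenase, fell under ERKi at 24h from 52.1, 63.4 and 35.7 to 14.6, 18.6 and 8.47 (adjusted p = 0.0224, limma). This list held 26 regions, and the call of Ldha was lost without 24h replicate 1 or 2 or ERKi 24h replicate 1 or 3.

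The lists of DNA replication and mitosis were lowest under ERKi at 24h. Of the 24 mitosis genes, all members with 28 regions, 12 regions fell and 0 rose at ERKi 24h against 24h, where 1.92% of all members and 2.82% of all regions were called lower, with a median difference of -22.4 over the list against -0.083 over all members. Of the 31 genes of DNA replication, 30 were members with 34 regions, of which 9 fell and 0 rose (median -17.7). With the block, 15 and 19 regions fell, against 6.04% of all members and 7.25% of all regions. The counts depended on single libraries. For mitosis it was 5 without 24h replicate 1, 6 without ERKi 24h replicate 3 and 8 without 24h replicate 3. For DNA replication it was 1 without 24h replicate 1, 2 without ERKi 24h replicate 2 or 3 and 4 without 24h replicate 3. At 24h against 0h, 0 regions of either list were called by limma (1 of mitosis and 8 of DNA replication at an unadjusted p below 0.05), with medians of -8.7 for mitosis and -12.4 for DNA replication, and with the block 5 and 12 regions fell, against 5.05% of all members and 9.67% of all regions. At ERKi 4h against 4h, 0 were called (1 and 3 at an unadjusted p below 0.05), and the median over DNA replication was -6.79. The comparisons of 24h with 0h and of ERKi 24h with 24h share the 24h libraries. The earlier results of these data were known when the lists were drawn up.

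The replication members that fell were 5 subunits of the MCM helicase (Mcm2, Mcm3, Mcm4, Mcm5 and Mcm6), Mcm10, the primase Prim1, the loading factor Cdc6 and Rpa2, which coats single-stranded DNA. Mcm6 at chr1:130253673-130256292 lay at 72.4, 56.1 and 48.4 at 24h and at 29.4, 11.5 and 5.06 at ERKi 24h (-43.6 ± 10.3, SE; limma, adjusted p = 0.0194). Mcm3 at chr1:20809105-20810408 fell from 81.5, 53.9 and 66.4 to 40.1, 19.7 and 18.7 (adjusted p = 0.0133, limma). In both, replicate 1 was the highest library of the group at 24h and at ERKi 24h, and the groups did not overlap. Prim1 fell by 46.0 points, Mcm2 by 42.1 (with a peak in its window in 6 libraries), Cdc6 by 38.6, the region shared by Mcm4 and Prkdc by 37.0, Mcm5 by 35.3, Mcm10 by 32.2 and Rpa2 by 31.9.

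The mitotic members that fell were Ccnb1, Ccnb2 and Cdk1, which form the kinase that starts mitosis, Incenp and Aurkb of the chromosomal passenger complex, Bub1b and Mad2l1 of the spindle checkpoint, Nuf2 and Cenpa of the kinetochore and centromere, Top2a, Tpx2 and Mki67. Incenp lay at 89.9, 81.5 and 88.9 at 24h and at 50.4, 31.6 and 29.8 at ERKi 24h (-49.5 ± 6.18, SE; limma, adjusted p = 0.000288). Top2a, the topoisomerase that untangles chromosomes, fell from 87.6, 62.8 and 80.4 to 46.2, 30.2 and 16.5 (adjusted p = 0.00576, limma). Mki67, the proliferation marker Ki-67, lay at 89.5, 49.96 and 83.9 and 38.04, 29.9 and 39.2 in these groups. The 24h and ERKi 24h libraries of all 3 did not overlap.

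Controllers of the G1 phase were called in both directions. E2f1 and Ccne1, the transcription factor and the cyclin that open S phase, fell under ERKi at 24h by 33.3 and by 33.1 points. Cdkn2b, the CDK inhibitor p15, rose (17.1), and Myc, which drives growth, rose from 10.4, 7.42 and 13.4 to 37.2, 35.2 and 43.6 (adjusted p = 0.0311, limma). At 24h against 0h, E2f2 fell by 35.3 and Ccne1 by 23.0 points. By fold enrichment and by pileup Myc differed by 1.86 (adjusted p = 0.578, limma) and 7.94 (0.273). With the block, 5 of the 30 regions fell in each of these comparisons, and 3 rose under ERKi. Of all members, 6.04% fell and 3.38% rose under ERKi at 24h with the block, and 5.05% fell at 24h against 0h. Without the block, 1.92% of all members fell and 0.640% rose under ERKi at 24h, and 1.25% fell at 24h against 0h. The calls rested on single libraries. Under ERKi at 24h, 0 regions of the list were called without ERKi 24h replicate 3, 1 higher and 0 lower without 24h replicate 1, 1 of each without ERKi 24h replicate 1, 0 higher and 1 lower without 24h replicate 3, and 0 higher and 2 lower without 24h replicate 2 or ERKi 24h replicate 2. At 24h against 0h, 0 were called without 0h replicate 1, and 1 without 10 of the other libraries.

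**Figure D4:**
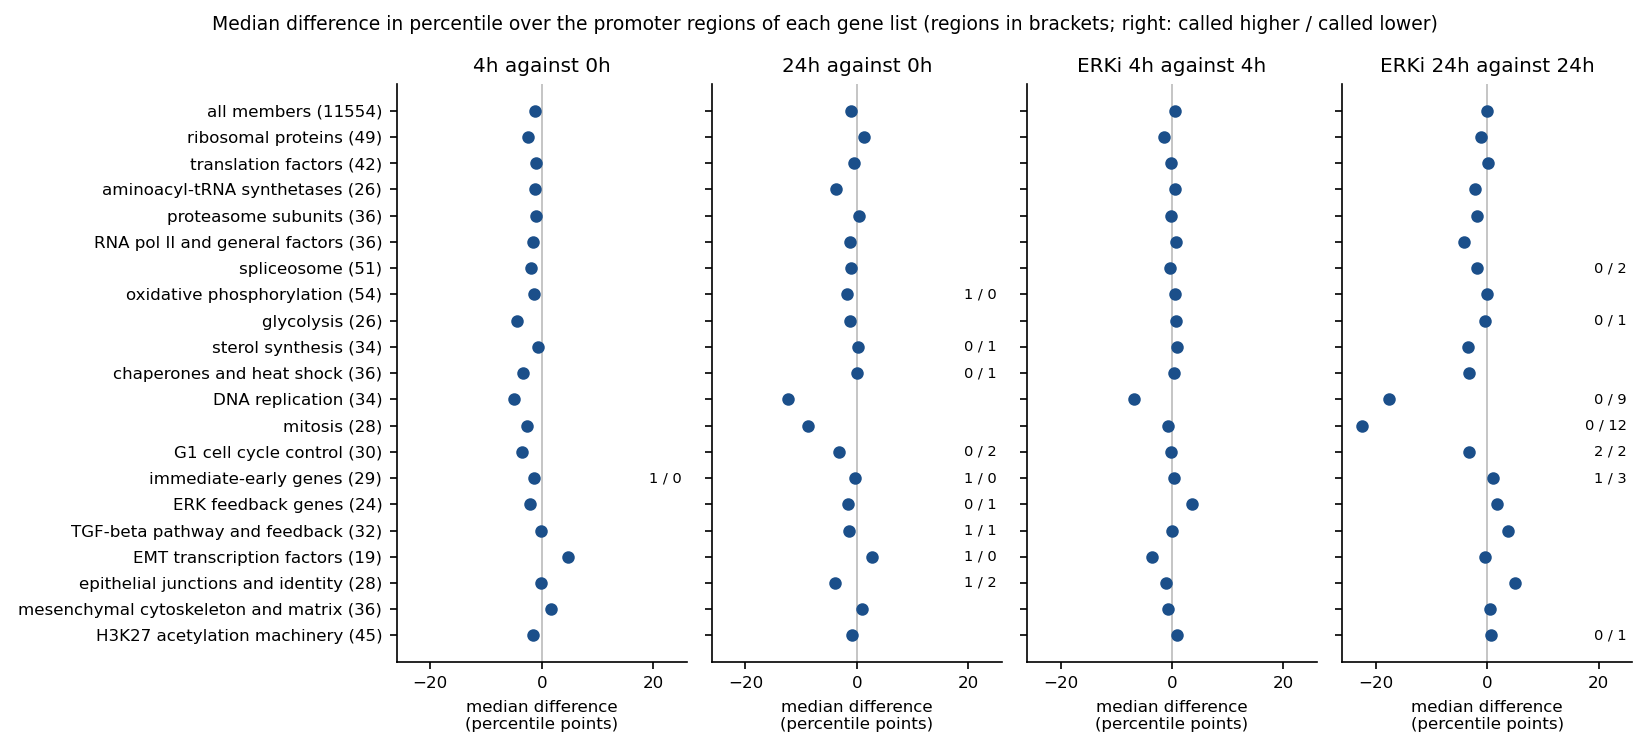
Median difference in percentile (horizontal axis, percentile points) over the member regions of each gene list (vertical axis, number of regions in brackets) in the 4 comparisons; numbers at the right are regions called higher and lower by limma. The mitosis and DNA replication lists lie at -22.4 and -17.7 at ERKi 24h against 24h, while the lists of ribosomal proteins and proteasome subunits lie between -2.55 and 1.25 in each panel.

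Of 26 immediate-early genes, 18 were members with 29 regions. Atf3, a stress-induced transcription factor, rose at 4h from 73.1, 66.8 and 71.3 to 90.01, 87.2 and 94.4 (adjusted p = 0.00298, limma) and lay at 88.2, 84.1 and 93.4 at 24h, with a peak in its window in 9 libraries. Under ERKi at 24h, Fosl1, Ier3 (by 23.0 points) and Maff (by 9.59 points) fell and the region of Myc given above rose, which makes 4 of 29 regions (13.8%) against 2.56% of all members and 4.93% of all regions. Without any one of the 24h or ERKi 24h libraries the lower calls were 1 or 2 and the higher 0. Of the 22 ERK feedback genes, 19 were members with 24 regions. Of these 1, that of Errfi1, an inhibitor of the EGF receptor, fell at 24h against 0h (by 37.4 points). Under ERKi 0 were called by limma, against 0% of all members at 4h and 2.56% at 24h. In a list of this size such shares amount to about a region or fewer. The 0 calls therefore do not show that these promoters were insensitive to ERK inhibition. At an unadjusted p below 0.05 there were 2 regions at 4h and 3 at 24h, against 3.32 and 11.98% of all members. With the block 2 were higher and 2 lower at 24h, against 3.38 and 6.04% of all members. Of 26 genes of the TGF-β pathway, 19 were members with a median percentile of 43.6. Smad7, its inhibitor, fell at 24h by 25.1 points, and Ltbp1, which holds latent TGF-β in the matrix, rose from 16.5, 40.3 and 8.86 to 71.2, 69.3 and 51.0 (adjusted p = 0.0236, limma), with 3 regions higher and 2 lower with the block (2.41 and 5.05% of all members). These 2 of 32 regions (6.25%) stood against 2.26% of all members and 10.4% of all regions, and 0 were called without 0h replicate 1 or 24h replicate 1. By pileup Smad7 differed by 7.70 in the other direction (adjusted p = 0.00938, limma). The call of Smad7 was lost when any 0h or ERKi 4h library was left out. It was also lost without 24h replicate 1 or 3 or ERKi 24h replicate 1 or 2. The call of Ltbp1 was lost without 0h replicate 1 or 24h replicate 1 or 2. The call of Errfi1 was lost without 0h replicate 3 or 24h replicate 1.

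Of 20 EMT transcription factors 13 were members, and Hmga2, a chromatin protein induced by TGF-β, was the one called. At chr10:119911376-119915064 it lay at 46.3, 53.2 and 47.3 at 0h and at 72.2, 72.7 and 70.9 at 24h (23.0 ± 6.55, SE; limma, adjusted p = 0.0284), without overlap. By fold enrichment it differed by -2.02 (adjusted p = 0.871, limma), and the call was lost without 0h replicate 1 or 3 or any 24h library. With the block 4 regions of this list rose at 24h and 1 fell. In that fit 2.41% of all members rose and 5.05% fell, and 10.6 and 9.67% of all regions. Of 43 genes of epithelial junctions and identity, 23 were members with 28 regions. At 24h, Crb3, an apical polarity protein, fell from 61.8, 67.2 and 66.6 to 35.2, 33.5 and 38.8 (adjusted p = 0.00724, limma), Pard6b, a partner in the same complex, fell by 29.4 points, and Ehf, an epithelial transcription factor, rose (23.6). These were 3 of 28 regions (10.7%), against 2.26% of all members and 10.4% of all regions, and the fall of 2 or 3 regions was called with each library left out. The call of Ehf was lost without 0h replicate 2 or 3 or 24h replicate 1 or 3. With the block 5 regions fell and 1 rose, against 5.05% lower and 2.41% higher of all members. Of 41 mesenchymal genes of cytoskeleton and matrix, 30 were members with 36 regions, of which 0 were called by limma in any comparison (2 to 4 at an unadjusted p below 0.05). Of all members, 0 to 2.56% were called in a comparison and 3.32 to 11.98% had an unadjusted p below 0.05. In a list of this size the called shares amount to about a region or fewer, so the 0 calls do not set it apart. At 24h against 0h the median difference over this list was 0.930. The extremes were Flna, the actin crosslinker filamin A, at 23.0 (adjusted p = 0.113, limma) and Plaur, the urokinase receptor, at -17.7 (0.128). With the block 1 region rose and 2 fell, against 2.41 and 5.05% of all members.

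Smaller numbers moved in the remaining lists. Of 22 sterol synthesis genes, 20 were in the annotation and all 20 were members, and Acat2 fell at 24h by 20.7 points. Of 24 chaperones 22 were members, and the region shared by Cct7 and 1700040I03Rik fell at 24h by 31.6 points. Of 34 genes that write, erase or read H3K27ac, 32 were members, and the region of Ncor1 and Pigl, Ncor1 being a corepressor of deacetylase complexes, fell under ERKi at 24h by 8.02 points (adjusted p = 0.0499, limma). These 3 lists held 34, 36 and 45 regions. Of all members, 1.25% fell at 24h against 0h and 1.92% under ERKi at 24h. The call of Acat2 was lost without 0h replicate 1 or 3 or 24h replicate 2 or 3. That of the Cct7 region was lost without 0h replicate 1 or 2 or 24h replicate 3. With a library left out, the list of Ncor1 had a call under ERKi at 24h only without ERKi 24h replicate 1 or 2.

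Of 22 genes chosen from those the study names, 13 were members. Ltbp1, which it names too, is described with the TGF-β pathway. Cmtm8 at chr9:114752329-114753832, whose sequence is given above, lay at 34.7, 45.5 and 37.4 at 24h and at 69.6, 67.8 and 69.3 at ERKi 24h (29.7 ± 8.31, SE; limma, adjusted p = 0.0452), without overlap. Hmga2 and Crb3 were called at 24h as given above. The regions of Wnt4, Itga2, Lamb1, Jak2, Jag1, Itgb3, Cdkn1a, Sox9 and Ccl2 and both regions of Tgfbr1 passed in no comparison by -log10 p, and the second region of Tgfbr1 was called with the block at 24h against 0h (-22.6, adjusted p = 0.373, limma, and 0.0151 with the block). By other measures some of them passed. At 24h against 0h Itga2 was lower by fold enrichment (-38.5, adjusted p = 0.0211, limma) and higher by pileup (23.7, 0.0249), a Jak2 region was lower by fold enrichment (-25.9, 0.0318), and a Jag1 region was higher by pileup (9.01, 0.0431). The first region of Tgfbr1 was higher by pileup at 4h (38.5, 0.0157) and 24h (28.2, 0.0260), and Itgb3 was lower by pileup under ERKi at 24h (-25.7, 0.0312). Both Jak2 regions lay above 99.7 in every library, so their rank could hardly rise. Lamb1, the member with the lowest mean percentile by -log10 p, could hardly fall. In those directions the missing calls of these genes say little. The other 9 genes were not called in all libraries, Id3, Shroom3 and Cx3cl1 in 13, Snai1 in 11, Id2 in 6, Il11 in 2, Cldn9 in 1, and Nid2 and Tjp3 in 0.

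The promoter letters of the sets called were counted in the same way, at the most upstream start for genes and the start nearest to the summit for regions. Of the genes with a member, 13.5% held a CHR element, 38.6% a CCAAT box and 4.45% an E2F site. An AP-1 site was found at 4.54% and an ETS site at 9.41% of these genes. A CHR element was found within 250 bases before to 50 after the start of 17.8% of all genes and 11.1% of members, of 28.8% of the 222 members that fell under ERKi at 24h, and of 82.1% of the 28 mitosis regions. The CCAAT box was found in 37.9, 37.5, 50.9 and 78.6% of these, and the E2F site in 2.77, 4.40, 13.1 and 3.57%. Of the 34 DNA replication regions, 64.7% held a CCAAT box, 41.2% an E2F site and 11.8% a CHR element. These letters were found in called and in uncalled regions of the lists. Of the 12 mitosis regions that fell 91.7% held a CHR element, as did 75% of the other 16, and an E2F site was found in 55.6% of the 9 replication regions that fell and 36% of the other 25. Among the 199 lower members in none of the 3 cell-cycle lists, 47.2% held a CCAAT box, 26.1% a CHR element and 11.1% an E2F site. The motifs may overlap one another within a promoter, and no test was made of these shares.

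The AP-1 site was counted in the members that rose at 24h. It was found in 18 of these 117 (15.4%), among them Hrh1, Zfp362 and Ypel4, against 6.79% of all genes and 4.73% of members. The site was found in 4.50% of the members that fell under ERKi at 24h and in 0 regions of the mitosis and DNA replication lists. A CpG ratio above 0.6 was found in 45.3% of the members higher and 54.2% of those lower at 24h, in 37.8% of those higher and 83.8% of those lower under ERKi at 24h, against 81.2% of all members. The ETS site was found in 34.7% of the 49 ribosomal protein regions, 8.83% of all members and 4.82% of all genes.

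**Figure D5:**
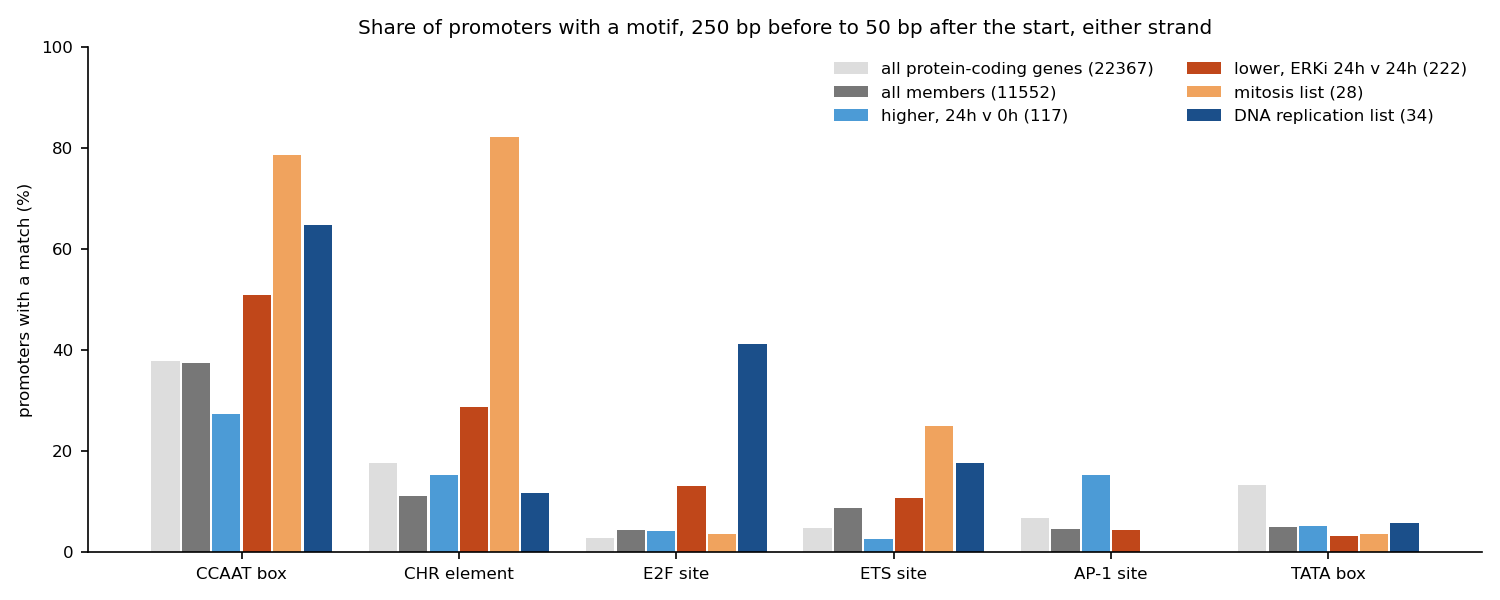
Percent of promoters (vertical axis) with a match to each motif (horizontal axis) from 250 bases before to 50 after the start on either strand, for all protein-coding genes, all members, the members higher at 24h against 0h, the members lower at ERKi 24h against 24h, and the mitosis and DNA replication lists. The CHR element stands at 82.1% of the mitosis list and the E2F site at 41.2% of the DNA replication list.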

How the data were processed

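H3K27ac ChIP-seq peaks of 15 NMuMG/E9 libraries (5 conditions, 3 each) were analysed. RNA-seq and input samples were not analysed here. Reads had been aligned to mm9 by the authors (Bowtie), and MACS2 was run library by library with its defaults. The deposited lists give positions, fold enrichment (a ratio), -log10 p and -log10 q, and a score used here only to check the layout. The use of a control at calling is not given in the sources used here.

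Promoter windows came from the GENCODE annotation of NCBIM37, the assembly named mm9 (51723 protein-coding transcripts), and promoter letters from its genome. The last peaks of 22 of 22 chromosomes lay within its lengths. A region without a window peak in some library (798 members) kept its highest peak elsewhere in the merged region. Pileup and background were solved from fold and -log10 p under the Poisson model of MACS2 (tolerance 0.005, 25 of 893719 peaks unsolved). Percentiles were fitted with limma 3.58.1 in R 4.3.3 (trend and robust empirical Bayes, 15 libraries, 10 residual degrees of freedom), tested on simulated data. The simulated libraries had independent noise and no effect of the replicate number, so that test does not cover the pairing. For a single value, 3 against 3 libraries cannot give a two-sided exact permutation p below 0.1. Tables and plots were made in Python 3.11.15 with pandas 2.3.3, SciPy 1.17.1, matplotlib 3.10.9 and NumPy 2.4.6.

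Same-numbered libraries deviated together from their condition means (r = 0.248 to 0.632 over members, 30 of 30 pairs above 0.1), so results were also fitted with the replicate number as a block. The mean of -0.219 for other numbers is no separate result, since deviations from a condition mean sum to 0. The labels do not say what a number shares. Alternatives were other measures, scales, filters and left-out libraries, and the test of the ERKi effect between 24h and 4h was added after seeing the data. The named members were the 5 largest called differences per direction and comparison without overlap (the 3 largest where fewer than 3 passed), the 5 extremes of level and of span, examples of the gene lists, and the genes the study names, except for items that are not reported here. Members and lists were chosen with earlier results of these data known.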

Additional observations from a re-analysis of the deposited data

Results flagged for a closer look

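Of all members, a region of Cenpm and a region of Cit had an effect of ERK inhibition that differed between 24h and 4h (limma, interaction over all regions, of which 0.0186% were called). Cenpm, a kinetochore protein, at chr15:82074140-82075449, lay at 92.9, 83.9 and 93.6 at 24h and at 62.8, 51.7 and 53.9 at ERKi 24h. At 4h it lay at 97.5, 91.6 and 96.9, and at ERKi 4h at 97.3, 91.5 and 97.6. The effect at 24h minus that at 4h was -34.2 ± 5.20 percentile points (SE, adjusted p = 0.0184 by limma, and 1.94e-05 with the replicate block). Cit, the citron kinase of cytokinesis, at chr5:116295186-116296118, lay at 77.6, 66.9 and 67.4 at 24h and at 23.3, 31.5 and 18.2 at ERKi 24h. At 4h it lay at 71.0, 77.0 and 71.1, and at ERKi 4h at 89.8, 79.4 and 81.4. Its effects differed by -56.8 ± 9.37 points (SE, adjusted p = 0.0429 by limma, and 0.000371 with the block). Another member region of Cit, chr5:116294406-116295087, was not called in this test without the block. In both called regions all 24h libraries lay above all ERKi 24h libraries. At 4h the groups overlapped in Cenpm (difference 0.197, adjusted p = 1.00, limma), and in Cit the ERKi 4h libraries lay above the 4h libraries (10.5, adjusted p = 0.902). With the block, 92 members passed this test, 10 higher and 82 lower, against 0.936% of all regions. The call of both genes ended by fold enrichment (adjusted p = 0.598 for Cenpm and 0.237 for Cit), width (1.00 for both), own-list percentiles (0.0857 and 0.0528) and normal scores (0.539 and 0.296), where limma called 0 members. By pileup Cenpm passed (0.0258) and Cit did not (0.111). With a library left out, the adjusted p lay between 0.00711 and 0.0997 for Cenpm and between 0.0274 and 0.230 for Cit. Neither passed without any one of the 4h libraries, 24h replicate 1 or 3, ERKi 4h replicate 1 or 3, or ERKi 24h replicate 3, and Cit was also lost without 0h replicate 3 or ERKi 4h replicate 2.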

How the results depend on the processing

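Counts of members called depended on measure, filter and block. In the order 4h against 0h, 24h against 0h and ERKi 24h against 24h, ranks by width called 4, 38 and 15, and pileup 82, 490 and 294. Fold enrichment called 119 under ERKi at 24h. Requiring -log10 q of 10 or more left 9995 members and called 10, 88 and 99, and requiring peaks over at least 50% of each region in every library left 8787 and called 8, 58 and 68. Fits to only the pair of groups compared, with fewer samples, called 10, 145 and 70. The replicate block called 214, 863 and 1088. With the block, in fits chosen after seeing the data, width called 10, 98 and 39, pileup 758, 1843 and 1798, and fold enrichment 56 and 623 in the first pair. Percentiles within the library's own list called 45 at 4h (44 higher and 1 lower) and 226 at 24h (149 higher and 77 lower). ERKi 4h against 4h gave 4 by pileup, 1 by normal scores, 1 by peaks in the window, 36 with the block, and 3 and 114 by width and pileup with the block. Over the 5 conditions, fold enrichment gave 379, width 53, the q limit 254, the cover limit 189, the block 2335, and fold enrichment, width and pileup with the block 1147, 122 and 3624.

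Leaving out a library gave 13 to 37 members at 4h, 143 to 293 at 24h, 0 to 2 at ERKi 4h, 117 to 300 at ERKi 24h and 419 (without ERKi 24h replicate 3) to 631 over the 5 conditions. The ERKi 4h calls were 2 without ERKi 4h replicate 2 and 1 each without ERKi 24h replicates 2 and 3. With peaks in the window alone, where a library without one was set to 0, the rise of Coro6 at 4h could not be compared, since the 6 libraries all lacked a window peak and the difference was 0 by construction. For the named members with a library left out, 964 differences kept their side of the threshold, 233 lost their call and 3 gained one. Own-list percentiles lost 20 calls and kept 60 results, peaks in the window lost 13 and kept 66, and the block gained 6 and lost none. The test of the ERKi effect between 24h and 4h called 2 members, 0 by fold enrichment, width, own-list percentiles, normal scores and the cover limit, 4 by pileup and 4 by window peaks, 92 with the block, and 0 to 10 with a library left out. The causes were not tested. Lists give no depth, so what depth limits could not be measured.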
